A study of Mus musculus with 6 samples.

Results

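The genes described here encode the contractile apparatus of smooth muscle: the actins Acta2 and Actg2, the myosin heavy chain Myh11, the regulatory light chain Myl9 and its kinase Mylk, the thin filament proteins Tagln, Cnn1, Smtn and Lmod1, and the intermediate filament protein Des. They were taken by name: every non-control probe that the scanner files assign to one of these 10 genes was used. That gave 10 of the 21874 genes named on the array and 12 of its 55681 probes, with 8 genes on 1 probe each and Mylk and Smtn on 2 each. RNA was measured in whole testes of male C57BL/6 mice at 5 months of age, 3 AROM+ mice, which carry a transgene that over-expresses aromatase, and 3 wild-type (WT) mice, on 1-colour Agilent arrays of 60-base probes, 1 testis per array. The labels name single whole testes, and they give neither the promoter nor the sequence of the transgene. The labels name no treatment for either group.

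Aromatase converts androgens into oestrogens. In the testis, smooth muscle proteins are made mainly by the peritubular myoid cells, a thin contractile layer around each seminiferous tubule that moves sperm and fluid along it, and by the smooth muscle of blood vessels. In these cells calcium activates myosin light chain kinase, which phosphorylates the regulatory light chain so that smooth muscle myosin pulls on actin filaments, while calponin, transgelin, smoothelin and leiomodin bind those filaments. In RNA of a whole testis, fewer cells of a type and less RNA per cell cannot be told apart, and neither can peritubular and vascular smooth muscle.

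Across the array, between 76.6% and 80.6% of spots were well above background, and arrays correlated at r = 0.988 to 0.992 within AROM+, 0.994 to 0.996 within WT and 0.962 to 0.983 between the groups. All 6 arrays lie on 1 slide with AROM+ in one row and WT in the other, so slide position and genotype cannot be told apart. The probe for endogenous Cyp19a1, which may not detect the transgene, averaged −3.21 ± 0.20 in AROM+ and −2.91 ± 0.32 in WT testes (SD, n = 3 each; limma adjusted p = 0.220). Of the 42636 probes kept, 44.4% were called different at an adjusted p under 0.05, 14.0% higher and 30.4% lower in AROM+, and the median difference was −0.19. Values throughout are log2 of the processed intensity minus log2 of the array's 75th percentile, and differences are AROM+ minus WT with the standard error (SE) and adjusted p of limma. Such values are comparable between arrays for 1 probe and not between probes.

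Sequences of 3 probes are shown to give the bases that were read, with positions in mm9 as the files give them. Lower case is used because no base differs in importance. Myh11 was read at chr16:14202190-14202249 on the minus strand, Smtn by one of its probes at chr11:3420834-3420893 on the minus strand, and Des at chr1:75363404-75363629 on the plus strand, a span wider than the probe itself.
Myh11 A_55_P1988531: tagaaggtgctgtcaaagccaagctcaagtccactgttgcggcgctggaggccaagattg
Smtn A_51_P479786: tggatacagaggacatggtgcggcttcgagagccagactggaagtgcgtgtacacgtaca
Des A_51_P335969: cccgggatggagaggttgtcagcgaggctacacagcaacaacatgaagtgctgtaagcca

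The 12 probes shared no run of identical bases longer than 11, the longest being between a Mylk and the Tagln probe. In the files' mm9 coordinates the other probes lie at chr19:34316060-34316119 (Acta2, minus strand), chr6:83462904-83462963 (Actg2, minus), chr9:45738097-45738156 (Tagln, minus), chr9:21913058-21913117 (Cnn1, plus), chr2:156607301-156607360 (Myl9, plus), chr16:34953958-34954017 and chr16:35001266-35001325 (Mylk, plus), chr1:137264581-137264640 (Lmod1, plus) and chr11:3417530-3417589 (the other Smtn probe, minus). Exon and UTR boundaries of that build were not used here.

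Calls among the contractile genes ran in both directions between AROM+ and WT testes, and most probes had none. Smtn, which encodes a cytoskeletal protein of contractile smooth muscle, was higher on both of its probes, and Lmod1, a nucleator of smooth muscle actin filaments, was higher on its dim probe. Actg2, the smooth muscle gamma actin, was lower. The 8 probes of the other 7 genes did not reach an adjusted p under 0.05, among them the most used smooth muscle markers, Acta2, Myh11, Tagln and Cnn1.

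In numbers, all 12 probes were well above background on all 6 arrays, 3 were called higher, 1 lower and 8 not called, against 14.0% higher and 30.4% lower among all kept probes. The 3 higher calls became 0 without AROM+ replicate 1, 1 without AROM+ replicate 3, WT replicate 1 or WT replicate 3, and 1 when dim probes were not filtered out. The 1 lower call remained without each array in turn and became 0 with quantile normalization.

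Most differences were positive, called or not. A positive difference was seen in 10 of 12 probes, against 34.1% of all kept probes, and the median was 0.25 over the 12 probes, against −0.19 over all kept probes. The groups did not overlap in 10 of 12 probes, against 58.1% of all kept probes. AROM+ was the higher group in 8 of them and the lower in 2, against 17.7% and 40.3% of all kept probes. An unadjusted p under 0.05 was found for 6 of the 12 probes, against 54.1% of all kept probes. The 95% intervals of 11 of the 12 differences lay within 1 log2 unit of 0, that is within a 2-fold change, the exception being one Smtn probe.

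**Figure D1:**
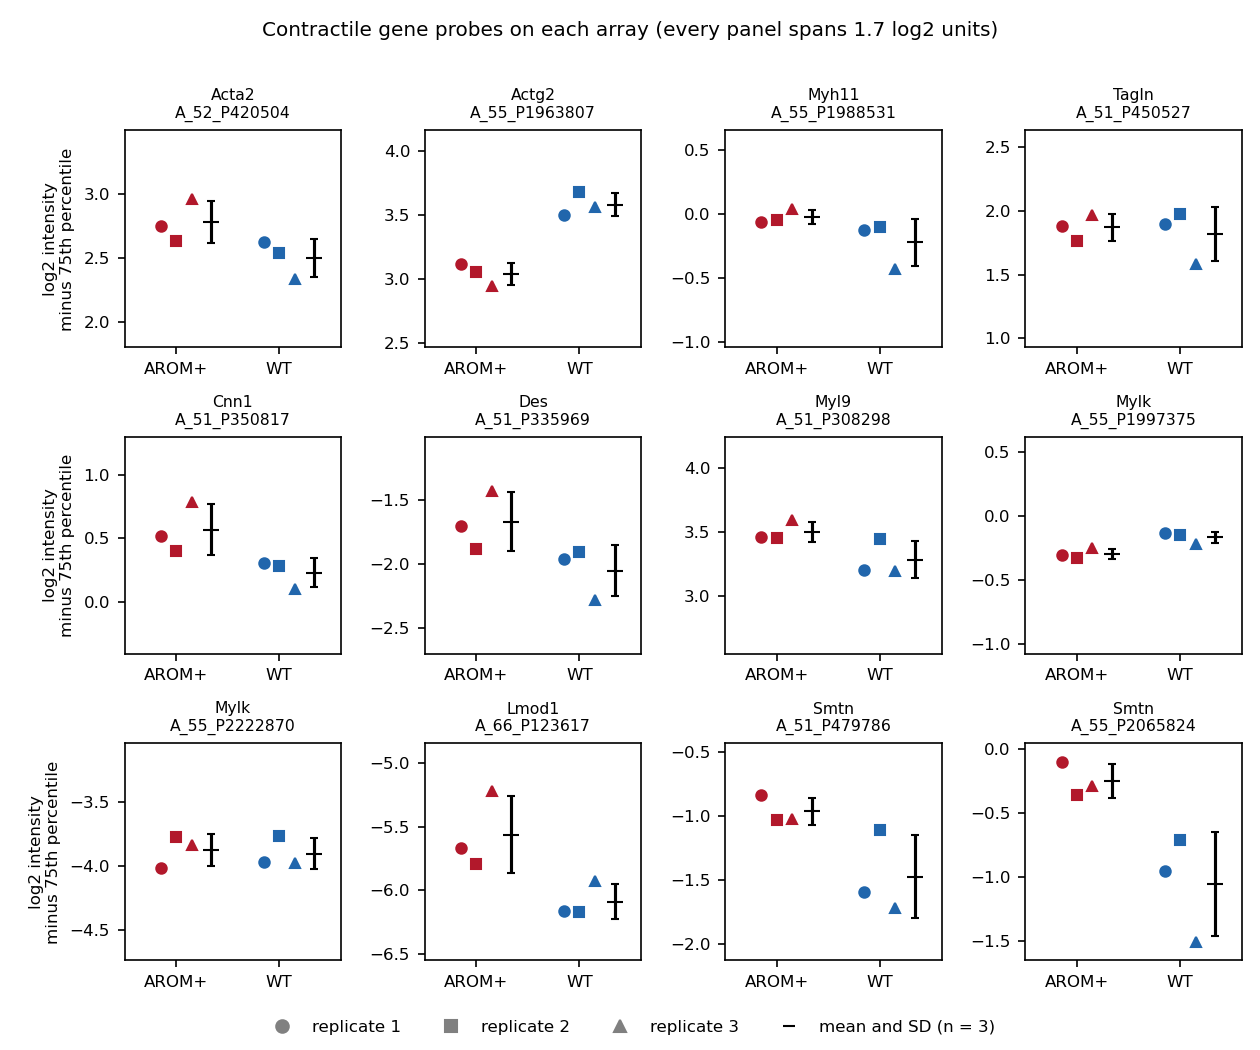
Log2 intensity minus the array's 75th percentile (vertical axes, every panel spanning 1.7 log2 units) for the 12 contractile probes, with AROM+ testes in red on the left and WT testes in blue on the right, 1 symbol per replicate, and black bars for the mean and SD (n = 3). The Actg2 points of AROM+ lie below all WT points, the Smtn points of AROM+ lie above them on both probes, and the Tagln and second Mylk panels overlap.

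Of the 2 smooth muscle actins, Actg2 was lower in AROM+ testes and Acta2 was not called. Actg2 read 3.12, 3.06 and 2.95 in AROM+ testes, against 3.51, 3.68 and 3.57 in WT testes. Every AROM+ value lay below every WT value, and the gap between the groups was wider than the range within either. The difference was −0.54 ± 0.10 (95% interval −0.78 to −0.31, 0.686-fold, limma adjusted p = 0.00767). It passed in 16 of the 17 other settings, and with quantile normalization it was −0.31 (adjusted p = 0.0507).

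Acta2, smooth muscle alpha actin and the usual marker of peritubular myoid cells, read 2.75, 2.63 and 2.96 in AROM+ testes, against 2.63, 2.54 and 2.33 in WT testes. The groups barely failed to overlap, since the lowest AROM+ and the highest WT value round to the same number. The difference of 0.28 ± 0.13 was not called (95% interval −0.02 to 0.59, adjusted p = 0.113), and with quantile normalization it was 0.49 and was called (adjusted p = 0.0216). The Acta2 probe was printed 10 times on each array, and 9 or 10 spots were used. Spots of an array varied by an SD of 0.046 to 0.085, and the SD between arrays of one group, which also holds labelling, hybridisation and scaling, was 0.17 in AROM+ and 0.15 in WT.

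Because both actin probes were read on the same arrays, their ratio does not depend on the scaling of the arrays. The log2 value of Actg2 minus that of Acta2 was 0.37, 0.42 and −0.01 in AROM+ testes, against 0.88, 1.15 and 1.23 in WT testes. Each AROM+ testis had a lower value than each WT testis, and the difference of the means was −0.83. An exact two-sided permutation test over the 20 splits of the 6 arrays gave p = 0.1, the smallest p that 3 arrays against 3 allow. Actg2 against Myl9 differed by −0.77 (exact permutation p = 0.1). Both p-values were fixed beforehand by the single probes. Every AROM+ value lay below every WT value for Actg2, and above every WT value for Acta2 and Myl9. The ratios therefore had to separate the groups, and their p-values add nothing to the values of the single probes.

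Among the myosin genes no difference passed the test. Myh11, the smooth muscle myosin heavy chain that defines differentiated smooth muscle, read −0.06, −0.04 and 0.04 in AROM+ testes, against −0.13, −0.10 and −0.43 in WT testes. The groups did not overlap, but WT replicate 3 alone was far below the rest, and the difference was 0.20 ± 0.12 (95% interval −0.08 to 0.48, adjusted p = 0.199), or 0.0946 without WT replicate 3. Myl9, the phosphorylated light chain, read 3.46, 3.45 and 3.60 in AROM+ testes, against 3.20, 3.45 and 3.20 in WT testes. The WT replicate 2 value was within 0.01 of the lowest AROM+ value, and the difference was 0.22 ± 0.11 (adjusted p = 0.138), called only with quantile normalization among the settings tried (0.45, adjusted p = 0.0140).

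Mylk, the kinase that switches the light chain on, was read by a pair of probes that lie far apart in the gene. The first, which the files annotate to an Ensembl transcript and cDNA clones but to no RefSeq transcript, read −0.30, −0.33 and −0.25 in AROM+ testes, against −0.13, −0.15 and −0.22 in WT testes. These groups did not overlap, with AROM+ the lower, and the difference was −0.13 ± 0.09 (95% interval −0.33 to 0.08, adjusted p = 0.256). The second read −4.02, −3.78 and −3.84 in AROM+ testes, against −3.97, −3.76 and −3.98 in WT testes, with overlapping groups and a difference of 0.03 ± 0.11 (adjusted p = 0.860). The SDs of the first probe were 0.04 in AROM+ and 0.04 in WT, so its difference was larger than its own spread, but it did not pass limma's test, whose SE also draws on the spread of the other probes.

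The thin filament regulators held the higher calls. Smtn was read by 2 probes. The first, whose sequence is given above, read −0.84, −1.03 and −1.02 in AROM+ testes, against −1.59, −1.11 and −1.72 in WT testes. AROM+ lay above WT throughout, but WT replicate 2 came close to the AROM+ values. Its difference was 0.51 ± 0.17 (95% interval 0.10 to 0.92, adjusted p = 0.0484), and it was called in 5 of 15 other settings. The call was lost without each array other than WT replicate 2, with differences of 0.45, 0.54 and 0.54 without AROM+ replicates 1, 2 and 3, 0.45 without WT replicate 1 and, when WT replicate 3 was left out, 0.39.

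The second Smtn probe had the largest difference of the 12. It read −0.10, −0.36 and −0.29 in AROM+ testes, against −0.95, −0.71 and −1.51 in WT testes. All 3 AROM+ testes lay close together and above all 3 WT testes, which were spread more widely (SD 0.13 in AROM+ and 0.41 in WT). The difference was 0.81 ± 0.21 (95% interval 0.32 to 1.30, 1.75-fold, adjusted p = 0.0201). It was called in 16 of 17 other settings and lost its call without AROM+ replicate 1 (0.74, adjusted p = 0.0564).

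The gap between the 2 Smtn probes was wider on each AROM+ array than on each WT array. The second minus the first was 0.74, 0.67 and 0.74 in AROM+ testes, against 0.64, 0.39 and 0.22 in WT testes. All AROM+ values were above all WT values, by 0.30 on average (exact permutation p = 0.1, the smallest possible).

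Lmod1 read −5.67, −5.80 and −5.22 in AROM+ testes, against −6.16, −6.17 and −5.93 in WT testes. The groups did not overlap. The processed signals were low, at 107.2, 80.1 and 114 in AROM+ and 62.8, 51.2 and 69.9 in WT, although every spot was well above background. The difference of 0.53 ± 0.17 was called (95% interval 0.13 to 0.92, adjusted p = 0.0405), in 9 of 17 other settings. With normexp background correction it was 0.20 (adjusted p = 0.217). The call was also lost without AROM+ replicate 1 (0.58), AROM+ replicate 3 (0.36), WT replicate 1 (0.49), WT replicate 2 (0.48) or WT replicate 3 (0.61).

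Cnn1, a basic calponin that binds actin in differentiated smooth muscle, read 0.52, 0.40 and 0.79 in AROM+ testes, against 0.31, 0.28 and 0.10 in WT testes. All AROM+ values were above all WT values, yet the difference of 0.34 ± 0.13 did not pass (95% interval 0.03 to 0.64, adjusted p = 0.0722). It passed under the trended variance prior (adjusted p = 0.0492). Tagln, the actin-bundling transgelin, read 1.88, 1.76 and 1.97 in AROM+ testes, against 1.90, 1.98 and 1.58 in WT testes. Its groups overlapped, and its difference was 0.05 ± 0.13 (95% interval −0.26 to 0.36, adjusted p = 0.771).

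Des, the muscle intermediate filament protein that links contractile units, read −1.70, −1.88 and −1.43 in AROM+ testes, against −1.96, −1.91 and −2.28 in WT testes. The groups did not overlap, although AROM+ replicate 2 and WT replicate 2 were nearly equal. The difference was 0.38 ± 0.16 (95% interval 0.01 to 0.76, adjusted p = 0.0874), and it was called in 0 of 17 other settings. As with Acta2, its 10 spots per array (8 to 10 used) varied by an SD of 0.043 to 0.076, and the SD between arrays was 0.23 in AROM+ and 0.20 in WT.

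**Figure D2:**
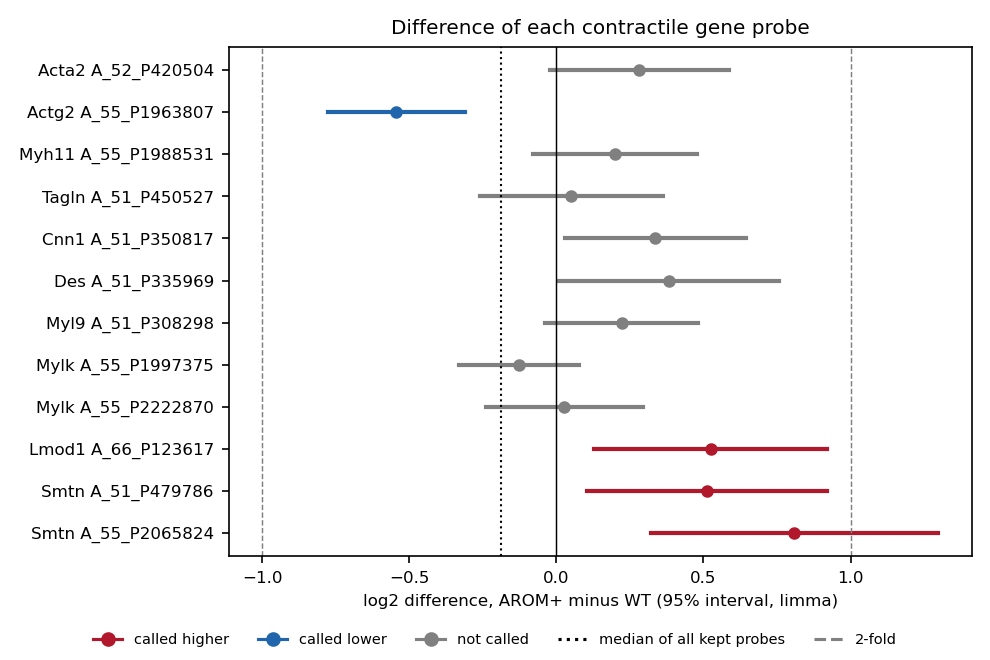
The log2 difference, AROM+ minus WT, of each contractile probe (horizontal axis) with its 95% interval from limma, called higher in red, called lower in blue and not called in grey. The dotted line is the median of all kept probes at −0.19 and the dashed lines mark a 2-fold change, which 1 Smtn interval crosses.

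The testes did not contribute evenly. Within AROM+, replicate 3 was the highest in 8 of 12 probes and replicate 2 the lowest in 9. Within WT, replicate 2 was the highest in 8 and replicate 3 the lowest in 10. The WT testis of replicate 3 therefore sits low across most contractile probes, and the AROM+ testis of replicate 3 sits high. How far this bears on the differences can be read from the values without them. The median over the 12 probes was 0.25 with all arrays, 0.19 without WT replicate 3 and 0.18 without AROM+ replicate 3. Without any other single array it was 0.27 to 0.30.

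Across the 6 arrays, Cnn1 and Des ran closest to Acta2 among the contractile genes, and each other probe was exceeded in r by at least 398 other genes. The number of genes with a higher r follows each value in brackets. Pearson's r with Acta2 was 0.983 for Cnn1 (2 of 18851) and 0.980 for Des (6). Myh11 followed at 0.889 (398), the second Smtn probe at 0.821 (1252), Myl9 at 0.767 (2165), Lmod1 at 0.756 (2408), Tagln at 0.698 (3422) and the first Smtn probe at 0.675 (3788). Mylk stood apart at 0.139 and −0.332, and Actg2 ran opposite at −0.789. These values are a description over 6 arrays, which share the genotype difference and the scaling of each array. Of 16935 named genes outside the 10, the closest to Acta2 were Zfp235 (0.991), Taf4b (0.985), Ap3s2 (0.982), Kdm2a (0.980) and Mif (0.980), and 44 had r of at least 0.95.

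Promoters of 7 of the 10 genes (Acta2, Cnn1, Des, Myl9, Mylk, Lmod1 and Smtn) were matched in RefSeq on GRCm38.p6. The 250 bases before the start site were searched on the strand of the gene. The CArG box, the element bound by serum response factor in many smooth muscle genes, was searched in its strict form, with only A and T between its C pair and its G pair. It was found in 1 of the 7, Myl9, against 1.47% of all 32841 promoters. A looser form, with 1 G or C among the inner bases, was found at 2 places in Acta2 and 1 in Myl9, that is in 2 of the 7 promoters, against 7.24% of all. The motif TATAAA, searched on that strand only, was found in 0 of the 7 and in 7.59% of all promoters. A match is a description of the sequence and shows no binding, and no match says only that these letters are not in this window. The Myl9 stretch is shown because it holds the only strict CArG box found in these windows of the 7. It runs at chr2:156775264-156775363 on the plus strand of GRCm38.p6, from 200 to 101 bases before the start site, with that box in capitals.
Myl9: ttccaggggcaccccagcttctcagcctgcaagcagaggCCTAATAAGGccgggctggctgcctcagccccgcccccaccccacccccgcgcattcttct

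Other genes of the same machinery were each read by their brightest kept probe. Over all 18852 genes so represented, 49.1% were called different, 18.8% higher and 30.3% lower. Of 20 other thin filament and cytoskeleton genes, 12 were higher and 4 lower, with a median difference of 0.47, against −0.15 over all genes. The count of higher genes was 7 when either WT replicate 1 or 3 was left out and 5 with spike-in scaling, and the count of lower genes was 1 when either WT replicate 1 or 3 was left out and 2 without AROM+ replicate 1. Cnn3, the acidic calponin of many non-muscle cells, rose by 2.20 ± 0.22 (adjusted p = 0.00295), and its smooth muscle relative Cnn1 was at 0.34, not called. Caldesmon, Cald1, rose by 0.85 ± 0.16 (adjusted p = 0.00910) and the non-muscle actinin Actn4 by 0.76 ± 0.14 (adjusted p = 0.00755). Lmod3, a leiomodin of striated muscle, was lower (−1.08 ± 0.14, adjusted p = 0.00437), as were Tmod1, Vcl and Synm. Vcl was at −0.42 on its brightest probe (adjusted p = 0.0207) and at 0.41 on its other one (adjusted p = 0.0264), so its direction is open as well. Tpm1, which is among the 12 higher genes, also had probes of both signs.

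Of 8 other myosin genes, 4 were higher and 0 lower, with a median of 0.27. The 4 are non-muscle or shared forms: Myh9, the non-muscle heavy chain (1.41 ± 0.18, adjusted p = 0.00397, with its other probe at −0.38), and the light chains Myl12a (0.49 ± 0.11), Myl12b (0.38 ± 0.10) and Myl6 (0.28 ± 0.09). The count of 4 became 2 without AROM+ replicate 1 or AROM+ replicate 2, 1 without WT replicate 1 or WT replicate 3, and 1 with spike-in scaling. Whether they differ from Myh11 and Myl9 in their change was not tested.

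Of the transcription regulators of smooth muscle genes, 8 of 10 could be tested, since Myocd and Hand2 were not kept. Foxf1 and Mef2c made up the 2 higher, with Foxf1 at 0.66 ± 0.16 (adjusted p = 0.0185), and 3 were lower. The lower ones were Srf, the factor that binds CArG boxes (−0.42 ± 0.09, adjusted p = 0.0123), its coactivator Mkl1 (−0.36 ± 0.08) and Klf4, a repressor of smooth muscle genes (−0.42 ± 0.09). The other Srf probe stood at 0.42, so the direction of Srf is open to the choice of probe. Tead1 and Mkl2 were not called on their brightest probes. Another Tead1 probe stood at 0.90 (adjusted p = 0.00359) and another Mkl2 probe at −0.69 (adjusted p = 0.00614). The higher count became 1 when WT replicate 1 was left out and 0 when WT replicate 3 was, and the lower count became 1 with quantile normalization.

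Of 19 contraction signalling genes, 7 were higher and 3 lower, with a median of −0.03. Rock2, a kinase that keeps light chains phosphorylated, was higher (0.77 ± 0.11, adjusted p = 0.00508), as were both subunits of the nitric oxide receptor, Gucy1a3 (0.75 ± 0.11, adjusted p = 0.00512) and Gucy1b3 (1.11 ± 0.17, adjusted p = 0.00566). Rock1 and Rhoa were not called on their brightest probes (−0.20 and −0.23). Another Rock1 probe stood at −0.63 (adjusted p = 0.0167) and another Rhoa probe at 0.78 (adjusted p = 0.0445). Itpr1, the calcium release channel, rose by 0.68 ± 0.10 on one probe and was at −0.03 on another. The 3 lower genes were Prkg1, Ppp1r12b and Cacna1c. Cacna1c was at −0.45 on its brightest probe (adjusted p = 0.0239) and at 1.03 on its other one (adjusted p = 0.00924). The direction of Cacna1c is therefore open to the choice of probe. Ppp1r12b also had a probe of positive sign, at 0.37 and not called (adjusted p = 0.275). The higher count was 4 without WT replicate 3, and the lower count was 1 without AROM+ replicate 1, WT replicate 1 or WT replicate 3.

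Several lists of cell type markers, that of pericytes and vascular smooth muscle among them, had larger medians than the contractile probes. Their part in the differences above was not tested. Over all genes read by their brightest kept probe, 18.8% were higher and 30.3% lower. Of 10 pericyte and vascular smooth muscle markers, 7 were higher and 0 lower, with a median of 0.98: the notch target Heyl rose by 1.47 ± 0.14, the channel subunit Abcc9 by 1.50 ± 0.16, Notch3 by 0.91 ± 0.10 and Pdgfrb by 1.05 ± 0.12. Their summed level, in multiples of the array's 75th percentile, was 26.6 to 30.0 in AROM+ and 27.5 to 34.2 in WT testes. Such a sum weighs bright probes most: Mcam alone, not called on this probe and at 0.39 on its other one, made up 92.9% of it in AROM+ and 96.5% in WT, and the other 9 genes summed to 1.86 to 2.25 in AROM+ and 0.989 to 1.13 in WT. Of 10 fibroblast markers 8 were higher, with the collagens Col3a1, Col1a1 and Col1a2 and the proteoglycan Lum of smallest p, and 1, Mfap5, was lower (summed level 29.5 to 41.3 in AROM+ and 16.2 to 21.7 in WT), and of 10 endothelial markers 8 were higher, with Esam, Plvap, Tie1 and Cdh5 of smallest p, and 1 lower (5.25 to 6.71 in AROM+ and 4.16 to 5.02 in WT). Of 10 macrophage markers 9 were higher, with Ctss, Tyrobp, Adgre1 and Cd68 of smallest p, and 1 lower (37.4 to 63.9 in AROM+ and 13.9 to 19.6 in WT). Dpt, among the 8 higher fibroblast markers, was kept through AROM+ alone, being well above background on 3 AROM+ arrays and 1 WT array. With the filter on all 6 arrays 7 fibroblast markers were higher. The lower fibroblast call was absent without AROM+ replicate 1, WT replicate 1 or WT replicate 3, and the lower macrophage call without AROM+ replicate 2, WT replicate 1 or WT replicate 2. The lower endothelial and macrophage genes, Kdr and Csf1r, had other probes that were higher.

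Of the tubule and interstitial cells, 4 of 8 Leydig cell markers (Hsd3b1, Cyp11a1, Nr5a1 and Lhcgr) and 2 of 10 Sertoli cell markers (Gata4 and Fshr) were higher with 0 lower. Over all genes 18.8% were higher and 30.3% lower, so the higher Sertoli count lay near the share over all genes. Of 10 spermatid markers 7 were lower, with Zpbp, Izumo1, Odf1 and Catsper3 of smallest p, and 0 higher. The summed levels were 37.4 to 53.9 in AROM+ and 22.1 to 39.5 in WT for Leydig cells, 49.6 to 67.4 in AROM+ and 50.3 to 59.0 in WT for Sertoli cells, and 167 to 176 in AROM+ and 199 to 263 in WT for spermatids. Leydig calls fell to 2 without WT replicate 1. Sertoli calls fell to 1 without AROM+ replicate 2, AROM+ replicate 3, WT replicate 1 or WT replicate 3. Spermatid calls fell to 4 without AROM+ replicate 1 and to 3 without WT replicate 1 or WT replicate 3.

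Muscle and tissue carried along with a testis were also looked for, again beside 18.8% higher and 30.3% lower over all genes. Of 10 skeletal muscle markers 8 could be tested, 1 higher (Tnni2) and 2 lower (Myh1 and Mb), with a summed level of 1.05 to 1.52 in AROM+ and 0.868 to 1.33 in WT testes. The 2 lower calls became 1 without WT replicate 1 or WT replicate 3. Of 10 epididymis markers 5 could be tested, 1 higher (Cst11) and 2 lower (Lcn9 and Rnase10). Lcn5, Lcn8, Adam7, Gpx5 and Rnase9 were not kept. Lcn9 was kept through WT alone, being well above background on 1 AROM+ array and 3 WT arrays. The summed level of these markers was 0.644 to 0.865 in AROM+ and 0.882 to 0.992 in WT. Rnase10 made up 76.1% of that sum in AROM+ and 88.7% in WT. Without Rnase10 the sum was 0.101 to 0.223 in AROM+ and 0.103 to 0.110 in WT. The higher call was lost without each array other than AROM+ replicate 3, and 1 of the 2 lower calls without WT replicate 3. Of 7 mesothelium markers 5 could be tested, 1 higher (Nkain4) and 2 lower (Msln and Krt19), with a summed level of 3.47 to 4.50 in AROM+ and 1.30 to 1.91 in WT. Nkain4 made up 87.4% of that sum in AROM+ and 66.0% in WT, and without it the sum was 0.476 to 0.565 in AROM+ and 0.465 to 0.590 in WT.

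**Figure D3:**
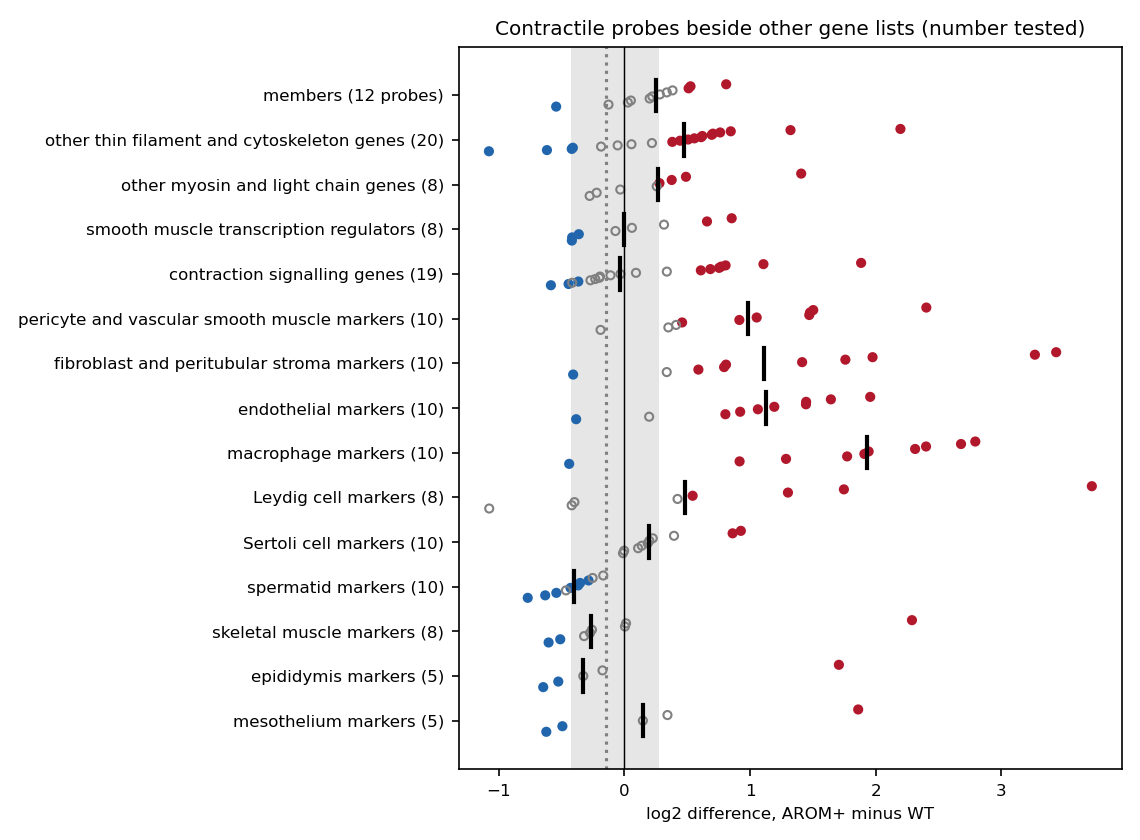
Log2 difference, AROM+ minus WT (horizontal axis), of the contractile probes and of each gene in the other lists, with red points called higher, blue points called lower and open grey points not called. Black bars are medians, the grey band spans the quartiles of all genes (−0.41 to 0.27) and the dotted line their median (−0.15); the 12 contractile probes lie closer to 0 than most pericyte, fibroblast, endothelial and macrophage genes.

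**Figure D4:**
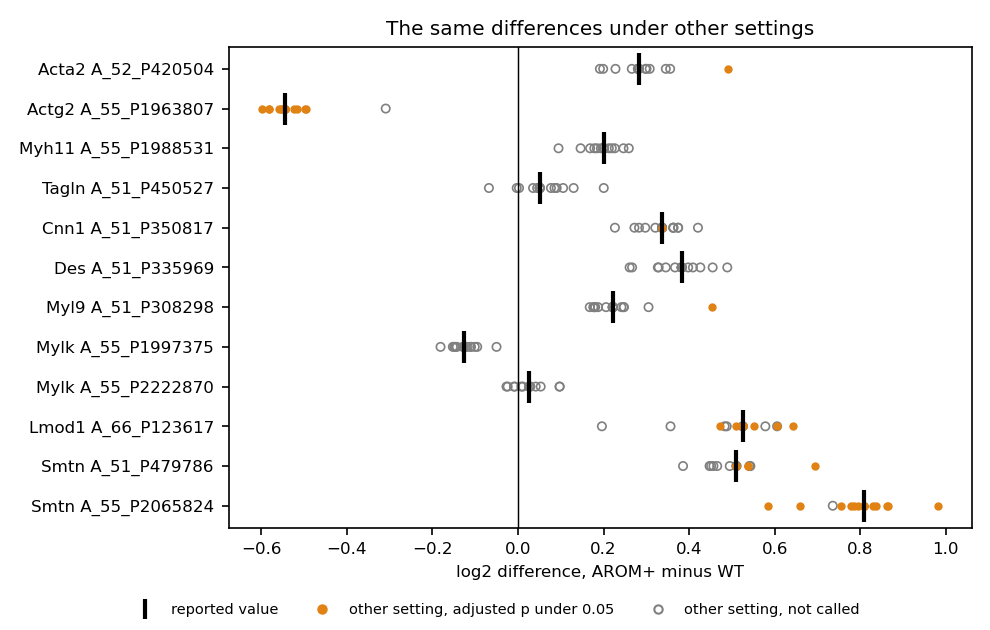
The log2 difference, AROM+ minus WT, of each contractile probe (black bar) and under every other setting (points, filled orange where adjusted p is under 0.05 and open where not). Actg2 and the second Smtn probe are called under 16 of 17 other settings, and Tagln and the second Mylk probe straddle 0.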

How the data were processed

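The authors deposited an intensity per spot, written by the Agilent scanner software Feature Extraction. The file headers name its version 10.7.3.1, whereas 10.10 stands in the submitters' processing notes. The processed signal has had background removed, per the file headers. The authors also deposited a table of log2 values, each column of which followed the log2 processed signals of its array with a slope of 1.00 and an offset of its own, with medians of −3.36, −3.38 and −3.34 in AROM+ and −3.41, −3.40 and −3.38 in WT. Of 62976 spots per array, 3671 control spots and 123 to 192 outlier-flagged spots were left out, and no spot was saturated. Spots of a probe were averaged after subtracting log2 of the array's 75th percentile, and 42636 of 55681 probes were kept because every array of either AROM+ or WT had them well above background. AROM+ was set against WT by limma 3.58.1 (lmFit and eBayes, R 4.3.3) over all kept probes, with Benjamini-Hochberg adjustment over all of them and a threshold of 0.05. List genes were read by their brightest kept probe. Names follow the RefSeq table of GRCm38.p6 (26068 probes by accession, 3814 by symbol, 637 by synonym; 702 listed several genes and 24460 had no match). From each list up to 4 called genes of smallest p were named. Tpm1, Tmod1, Vcl, Synm, Mef2c, Tead1, Mkl2, Rock1, Rhoa, Prkg1, Ppp1r12b, Cacna1c, Kdr, Csf1r, Dpt and Mfap5 were added after their values were seen. The 10 genes and the lists were chosen with earlier results of these data known. The labels name separate testes, and 3 arrays per group limit the precision. The test was also tried on simulated data, drawn with the means and spreads of the probes on these arrays. That simulation drew each probe independently and changed only a small share of them, unlike these data. No result here rests on it.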

Additional observations from a re-analysis of the deposited data

How the results depend on the processing

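Alternatives were normexp background correction (offset 50), quantile normalization, centring on the median of kept probes, scaling to E1A spike-in spots, the deposited table, no filter or a filter on all 6 arrays for dim probes, 2 fits over genes, the replicate block, a trended prior and leaving out each array. Of the differences of contractile probes, 171 of these results kept direction and side of the threshold, 20 lost the call, 3 gained it and 6 changed sign. The 3 probes called higher were 1 with no filter on dim probes and between 0 and 2 with an array left out. They were 2 with the replicate block, which lost the first Smtn probe (adjusted p = 0.0715) and no other contractile call. Arrays with the same replicate number showed no sign of pairing (correlations of deviations 0.05, −0.15 and 0.04, against −0.14 to 0.12 for other pairs). So few arrays cannot settle whether the samples were paired. The 1 probe called lower was 0 with quantile normalization, where Actg2 was −0.31. The second Mylk probe turned to −0.0271 with spike-in scaling, −0.0243 without AROM+ replicate 2, −0.00759 without WT replicate 1 and −0.00957 without WT replicate 3, and reached 0.0974 without WT replicate 2. Tagln turned to −0.00309 with spike-in scaling and −0.0681 without WT replicate 3, and reached 0.130 without WT replicate 2. The cause was not tested. Among the lists, spike-in scaling gave 1 regulator higher, 0 endothelial and 0 macrophage markers lower, 1 mesothelium marker lower, 3 spermatid markers lower and 0 epididymis markers higher. Quantile normalization gave 3 spermatid and 0 macrophage markers lower and 1 epididymis marker lower, and the replicate block 4 spermatid and 0 macrophage markers lower. With no filter on dim probes 1 Sertoli and 0 epididymis markers were higher, and with normexp correction or the filter on all 6 arrays 1 epididymis marker was lower. A trended prior or the fit over genes by brightest probe gave 1 myosin gene lower. Over all kept probes, higher calls ranged from 3822 without WT replicate 3 to 6376 with quantile normalization (5982 as reported), and lower calls from 6776 without WT replicate 3 to 13400 with a trended prior (12946 as reported). Their median difference ranged from −0.24 with spike-in scaling to −0.12 with quantile normalization.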
